A study of Rattus norvegicus with 3 samples.

Results

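A set of 7 genes known for the work of osteoclasts was followed through the cell clusters of rat jaw joint tissue, and all 7 of 7 were listed in each of 3 single-cell RNA libraries. They were Acp5, Ctsk, Atp6v0d2, Oscar, Nfatc1, Slc9b2 and Sigirr. The 7 were selected on values measured in these libraries, for lying outside osteoclast clusters, so their levels are a description and carry no test. Condylar cartilage and subchondral bone of wild-type Sprague Dawley rats gave 1 library per condition, each from 16 pooled condyles of 8 rats. The sham library came from joints injected with a control adeno-associated virus (AAV) vector. The UAC library came from rats with the same vector and unilateral anterior crossbite, a bite change that loads the joint. The UAC + miR-330 library came from rats with crossbite and an AAV carrying the microRNA miR-330. The sham library held 77668015 UMIs (unique molecular identifiers, 1 per captured RNA molecule) in 15 clusters, the UAC library 92629658 in 18 and the UAC + miR-330 library 97255383 in 19. With 1 library per condition no difference has a replicate check, and every interval given here is a 95% interval that covers counting error only.

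Osteoclasts are large cells fused from precursors of the macrophage lineage, and they dissolve bone by pumping acid onto it and secreting proteases into the acid pit. RANK signalling together with receptors that use ITAM adaptors switches on the transcription factor NFATc1, which in turn activates the genes of fusion, acid transport and matrix digestion. Subchondral bone and its marrow spaces also hold developing B cells, neutrophils and erythroid cells, some of which share lysosomal and signalling genes with osteoclasts.

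The labels name chondrocytes and osteoclasts as the cell types, so the defining osteoclast genes were looked up first. The calcitonin receptor gene Calcr had 4 UMIs in the sham, 1 in the UAC and 2 in the UAC + miR-330 library. The fusion gene Ocstamp had 3, 2 and 1 UMIs, and its partner Dcstamp was listed in the UAC library alone, with 2 UMIs. These fusion and hormone receptor genes were thus at or near 0 in all 3 libraries, and no cluster was named osteoclast-like. Of 12 listed osteoclast markers, 6 of them members, the macrophage-like cluster had 3 enriched in sham, 5 in UAC and 4 in UAC + miR-330. A neutrophil-like cluster with interferon-induced genes also had 3 in each library, a tie in sham, and the T and NK-like cluster 3 in UAC and 3 in UAC + miR-330. A marker of that list, Mmp9, was among the 10 leading genes of 1 neutrophil-like cluster in the UAC and 1 in the UAC + miR-330 library. Genes that osteoclasts share with other cells were present: Mmp9, a gelatinase, peaked in neutrophil-like clusters at 923 UMIs per 1000000 of the cluster (CPM) in sham, 1306 in UAC and 1468 in UAC + miR-330. Tnfrsf11a, which encodes RANK, peaked at 12.1 CPM in the macrophage-like cluster of the sham library and at 50.7 and 61.6 CPM in the T and NK-like clusters of the UAC and UAC + miR-330 libraries. By markers, 8 sham, 8 UAC and 9 UAC + miR-330 clusters were B-like, and these held 52.5%, 47.9% and 49.4% of all UMIs. Each library also had 1 macrophage-like and 1 chondrocyte-like cluster and between 2 and 4 neutrophil-like ones. Some clusters carried B genes beside those of erythroid, dendritic or T and NK cells, and since doublets cannot be called from cluster sums these were kept apart from the B-like class.

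Acp5 encodes tartrate-resistant acid phosphatase, the enzyme stained to count osteoclasts. Its UMIs lay mostly in B-like clusters, at 81.3% (80.6 to 82.0, exact binomial interval) in the sham, 74.7% (73.9 to 75.6) in the UAC and 75.5% (74.6 to 76.3) in UAC + miR-330. Among genes with at least 10 UMIs, 57.1% of 15453 in the sham, 50.9% of 15827 in the UAC and 48.9% of 15982 in the UAC + miR-330 library had over 50% of their UMIs in B-like clusters, and so had 1 of the 7 members, Acp5, in each. With the clusters that carry B genes beside another class counted as B-like, 5, 3 and 5 of the 7 passed 50%, beside 78.5%, 76.5% and 78.9% of all genes. A share at least as large as that of Acp5 was reached by 4.41%, 6.78% and 6.15% of those genes. The early cluster marked by Dntt counted as B-like in the UAC and UAC + miR-330 libraries but not in the sham, so the B-like sets differ. Leaving that cluster out, as its leading genes named another class, lowered the share to 72.7% in the UAC and 73.3% in the UAC + miR-330 library. Acp5 was selected on its place in these clusters, so its rank is a description.

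Within the B-like clusters, Acp5 was highest in the one with the highest mean level of mature B genes (Ms4a1 and Fcmr among them). That cluster, number 1 in the sham library and number 2 in the others, held 376 CPM (361 to 392, exact Poisson interval) in the sham, 301 (288 to 314) in the UAC and 251 (240 to 263) in UAC + miR-330. In the sham library the next cluster, number 5, followed at 272 CPM (258 to 286), clear of it. In the UAC and UAC + miR-330 libraries a cluster with dendritic and B genes came next, at 282 CPM (261 to 305) and 243 CPM (226 to 261), and its interval overlapped that of the mature cluster. Its mean log2 level of mature B genes, 8.86 and 8.96, was above the 8.04 and 8.14 of the mature B-like cluster. The early cluster marked by Dntt, which carries T and NK genes beside B genes in the sham library, was much lower, at 81.9, 62.1 and 55.8 CPM. Acp5 was lowest in a neutrophil-like cluster of every library, at 12.6, 7.58 and 4.60 CPM, and stayed between 13.9 and 16.6 CPM in the chondrocyte-like clusters.

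**Figure D1:**
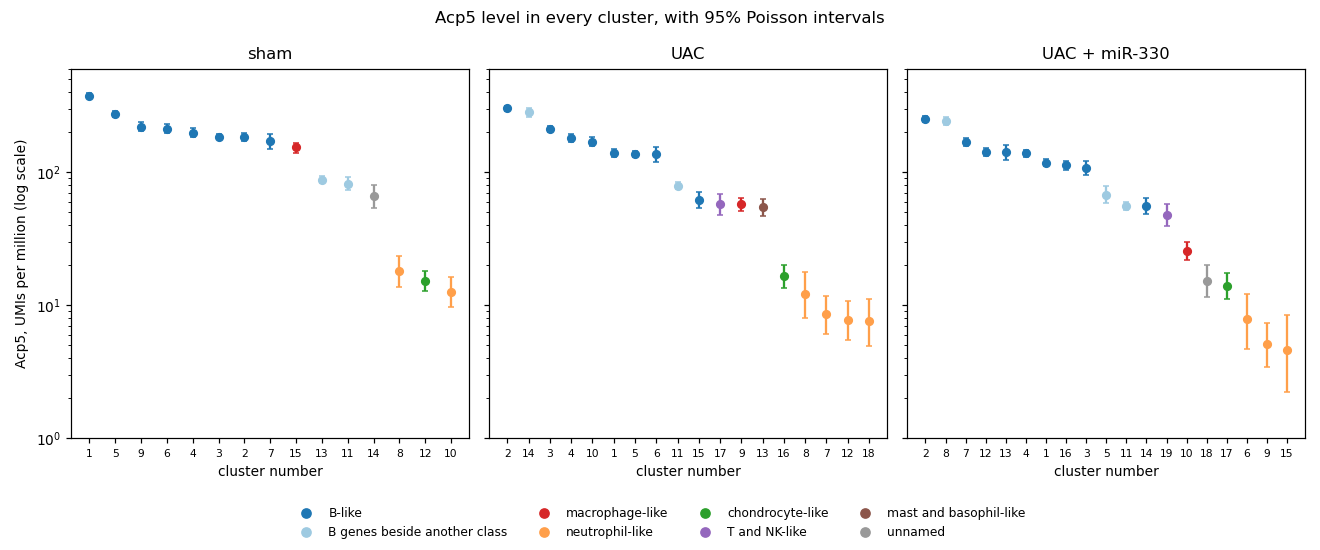
Acp5 level in every cluster of the 3 libraries, in CPM on a log axis, ordered from high to low and coloured by marker class, with exact 95% Poisson intervals. Most B-like clusters lie at the top, reaching 376, 301 and 251 CPM, and neutrophil-like clusters at the bottom.

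Free RNA from 1 source keeps its genes in 1 ratio, so Acp5 was set against Cd79b, a part of the B cell receptor. B-like clusters held 237 UMIs of Acp5 per 1000 of Cd79b in the sham (232 to 243), 219 in the UAC (214 to 225) and 200 in UAC + miR-330 (194 to 205), and single B-like clusters ranged from 185 to 284, 173 to 256 and 148 to 264. Neutrophil-like clusters held 265 (214 to 326), 259 (211 to 315) and 212 (157 to 282) per 1000 together, and these intervals took in the B-like ratio in each library. Singly, sham cluster 10 (337, 247 to 454) and UAC cluster 18 (379, 229 to 608) lay above it. Their intervals overlapped the range of single B-like clusters, so in the neutrophil-like clusters Acp5 is not told apart from background. The macrophage-like cluster held 2831 (2387 to 3369), 1723 (1440 to 2066) and 933 (744 to 1170) per 1000. The T and NK-like cluster held 1615 in the UAC (1208 to 2171) and 1864 in UAC + miR-330 (1347 to 2603). Chondrocyte-like clusters held 529 (427 to 653), 688 (527 to 894) and 911 (667 to 1243) per 1000, which in the UAC + miR-330 library overlapped the macrophage-like cluster. Clusters with erythroid and B genes held 427, 406 and 413, those with dendritic and B genes 531 in UAC and 551 in UAC + miR-330, the UAC mast and basophil-like cluster 542, and the unnamed clusters 703 in sham and 535 in UAC + miR-330, whereas sham cluster 11 with T and NK and B genes held 159. All of these classes but the neutrophil-like and that of cluster 11 thus lay above the range of single B-like clusters for this 1 gene pair; the part of free RNA from other cells was not tested.

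Acp5 was lower in the UAC than in the sham library both in the mature B-like and in the macrophage-like cluster. Over all clusters it was 149 CPM in the sham, 112 in the UAC and 94.5 in the UAC + miR-330 library, log2 ratios of -0.42 (-0.46 to -0.38) for UAC against sham and -0.24 (-0.28 to -0.20) for UAC + miR-330 against UAC. On the scale of the deposited mean counts these were -0.22 and -0.00742, so the second fall depends on the scale. In the mature B-like cluster the log2 ratios were -0.32 (-0.41 to -0.24) and -0.26 (-0.35 to -0.17). The shift of 0.24 on the scale of the deposited mean counts is nearly as large as the second, so that fall depends on the scale too. The matched clusters differ in make-up: 13 listed T and NK markers, 12 of them matched, summed to 327 CPM in the sham mature cluster, with Ccl5 highest at 178, and to 46.0 and 45.2 CPM in the others, whose libraries have a separate T and NK-like cluster. The macrophage-like cluster (15 in the sham, 9 in the UAC and 10 in the UAC + miR-330 library) held 153 CPM (140 to 167), 57.3 (51.3 to 63.7) and 25.6 (21.7 to 29.9). There the log2 ratios were -1.42 (-1.62 to -1.22) and -1.16 (-1.45 to -0.88). Dendritic markers, 10 of 10 matched, summed there to 492, 282 and 459 CPM, with Tcf4 highest at 246, 158 and 233, and 7, 3 and 5 of them were enriched; Cd209 was at 0 in UAC. Among listed genes Irf8 and Blnk were lower there too for UAC against sham, and sham has no separate cluster with dendritic and B genes. These markers fell with Acp5 for UAC against sham and rose for UAC + miR-330 against UAC, and their part in the Acp5 values was not tested. Sums over clusters cannot separate fewer cells holding a gene from less RNA per cell.

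Ctsk encodes cathepsin K, the protease that cuts bone collagen, and it was held by the chondrocyte-like cluster. That cluster is not of chondrocyte genes alone: 14, 14 and 15 chondrocyte markers were enriched in it, with 9 osteogenic markers in each library and 7, 7 and 8 fibroblast markers, and Col1a1 and Sparc were among its leading genes. It had 1598 of 1857 UMIs in the sham library, 1556 of 1804 in the UAC and 899 of 1126 in the UAC + miR-330 library. It stood at 177 CPM (169 to 186), 260 (247 to 273) and 153 (143 to 163), while the second highest cluster of each library had 10.97, 9.54 and 5.32 CPM. In the chondrocyte-like cluster the log2 ratio was 0.55 (0.45 to 0.66) for UAC against sham, beside a median of 0.14 over genes with at least 50 UMIs there, and -0.77 (-0.89 to -0.65) for UAC + miR-330 against UAC, beside a median of 0.02. Over all clusters Ctsk fell instead from 23.9 CPM in the sham to 19.5 in the UAC and 11.6 in the UAC + miR-330 library, while the chondrocyte-like cluster held 11.6%, 6.46% and 6.05% of the UMIs of the 3 libraries; the part of that share in the fall was not tested. The direction for UAC against sham thus differed between the cluster and the library total.

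Free RNA was weighed for Ctsk with the collagen gene Col1a1. The chondrocyte-like cluster held 3.09 UMIs of Ctsk per 1000 of Col1a1 in the sham (2.94 to 3.24), 5.54 in the UAC (5.27 to 5.82) and 3.11 in UAC + miR-330 (2.91 to 3.32). The macrophage-like cluster held 35.8 (20.3 to 58.8), 151 (112 to 200) and 77.4 (49.8 to 115) per 1000. B-like clusters held 24.0, 44.4 and 40.6 per 1000 on 147, 145 and 120 Ctsk UMIs. Over the B-like clusters Ctsk was low, at 3.60, 3.27 and 2.50 CPM. The intervals of sham clusters 8 and 14, UAC clusters 12, 13, 17 and 18 and UAC + miR-330 cluster 5 took in the ratio of the chondrocyte-like cluster, so Ctsk there, on between 2 and 17 UMIs, is not told apart from background. For the other clusters, B-like ones included, the part of free RNA from cells with little Col1a1 was not tested.

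**Figure D2:**
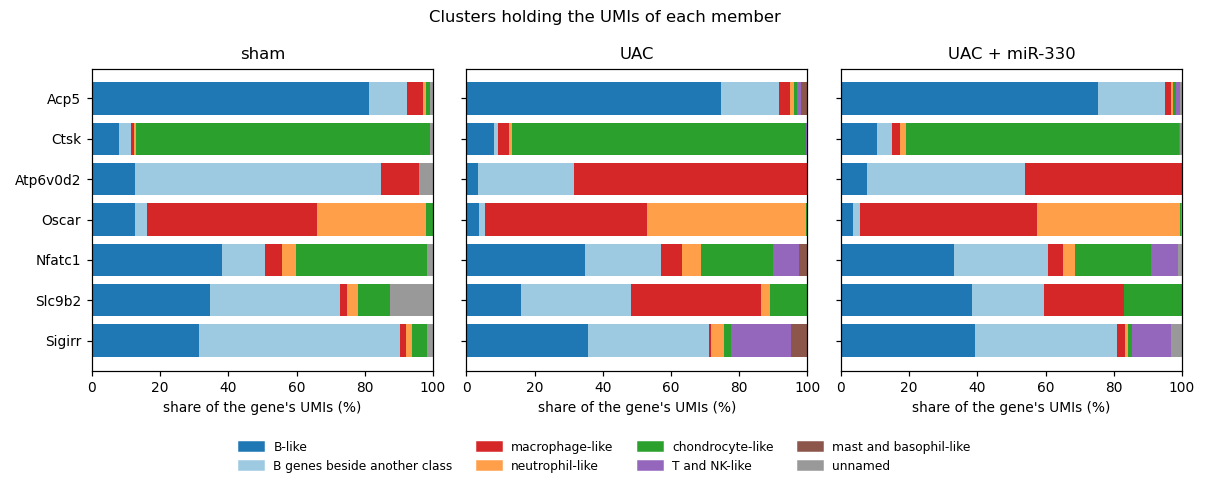
Share of each member's UMIs, in percent, held by each class of clusters in the 3 libraries. Acp5 lies mostly in B-like clusters (81.3%, 74.7% and 75.5%), Ctsk in the chondrocyte-like cluster, and Oscar is divided between macrophage-like and neutrophil-like clusters.

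Atp6v0d2 encodes the d2 subunit of the vacuolar proton pump, and it was rare: 72 UMIs in the sham, 92 in the UAC and 13 in the UAC + miR-330 library. In the sham library 52 of the 72 lay in cluster 13, which carries erythroid and B genes (4.59 CPM, 3.43 to 6.02), and 7 lay in the small B-like cluster 7, whose level of 5.17 CPM (2.08 to 10.7) overlapped it. In the UAC library 63 of the 92 lay in the macrophage-like cluster (10.7 CPM, 8.25 to 13.7) and 26 in cluster 11, the erythroid and B gene cluster. It was at 0 in 9 of 15, 14 of 18 and 15 of 19 clusters, among them the chondrocyte-like ones, where a limit of 3 counts allows up to 0.333, 0.502 and 0.510 CPM and the exact interval reaches 0.409, 0.617 and 0.627. In the macrophage-like cluster it stood at 2.36 CPM in the sham (8 UMIs), 10.7 in the UAC (63) and 1.00 in UAC + miR-330 (6), log2 ratios of 2.11 (1.12 to 3.46) and -3.32 (-4.92 to -2.22), or 1.59 and -2.66 with 5 UMIs added to each count. The macrophage-like cluster of the UAC library was therefore high against both others. The ubiquitous isoform gene Atp6v0d1 stood there at 223, 214 and 219 CPM and moved little.

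Slc9b2 encodes a sodium proton exchanger that rises as osteoclasts form. It had 95, 81 and 47 UMIs, and in the macrophage-like cluster 2 in the sham, 31 in the UAC and 11 in UAC + miR-330 (0.591, 5.28 and 1.84 CPM). The log2 ratios there were 2.86 (1.19 to 6.27) and -1.48 (-2.66 to -0.49), and with 5 UMIs added to each count 1.57 and -1.20, since the first rests on 2 sham UMIs. In the sham library it was highest in the unnamed cluster 14 (12 UMIs, 7.75 CPM) and in B-like cluster 7 (9 UMIs, 6.65 CPM), with overlapping intervals. Slc9b2 and Atp6v0d2 thus shared the macrophage-like cluster as the highest of the UAC library. They shared the erythroid and B gene cluster as well, where Slc9b2 had 36, 26 and 10 UMIs and Atp6v0d2 had 52, 26 and 5. Pearson's r between their log2(CPM + 1) values over clusters was 0.78 in the sham (15 clusters), 0.87 in the UAC (18) and 0.52 in UAC + miR-330 (19).

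Oscar encodes a collagen receptor that signals through the adaptor FcRγ. Its UMIs lay in the macrophage-like cluster and in 1 neutrophil-like cluster led by interferon-induced genes such as Ifit3 (number 8 in the sham and UAC libraries and 6 in the UAC + miR-330 library). These clusters together held 82.0% of its 150 UMIs in the sham, 90.8% of 392 in the UAC and 93.6% of 361 in the UAC + miR-330 library. The interferon-gene neutrophil-like cluster stood at 15.7 CPM (11.6 to 20.9), 76.8 (65.7 to 89.2) and 61.5 (52.1 to 72.2). The macrophage-like cluster stood at 22.2 CPM (17.4 to 27.8), 31.7 (27.3 to 36.6) and 31.4 (27.1 to 36.2). In the sham library the intervals of these clusters overlapped, and in the UAC and UAC + miR-330 libraries the neutrophil-like one was clearly higher. For UAC against sham the log2 ratio was 2.28 (1.82 to 2.78) in the neutrophil-like and 0.51 (0.12 to 0.92) in the macrophage-like cluster. For UAC + miR-330 against UAC both intervals took in 0, at -0.32 (-0.65 to 0.01) and -0.01 (-0.31 to 0.29). Over all neutrophil-like clusters, 2 in sham, 4 in UAC and 3 in UAC + miR-330, the log2 ratios were 1.00 (0.55 to 1.51) and 0.23 (-0.09 to 0.55), so the size of the rise, and the sign of the second ratio, depend on how neutrophil-like cells were divided. Retnlg was a leading gene of sham cluster 8 but of UAC cluster 7, not 8. Oscar was at 0 in 5, 7 and 6 clusters, and over the B-like clusters it had 19, 15 and 13 UMIs.

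UMIs of Nfatc1, the transcription factor gene, were found in every cluster, without a single home. The part of free RNA in clusters where they were few was not tested. In the sham library Nfatc1 was highest in the chondrocyte-like cluster, at 187 CPM (178 to 196), ahead of the mature B-like cluster at 93.0 (85.6 to 101). In the UAC library the cluster with dendritic and B genes led at 296 CPM (274 to 319), followed by the chondrocyte-like cluster at 203 (191 to 214) and the T and NK-like cluster at 200 (182 to 220), which overlapped. In the UAC + miR-330 library the same order held, at 338 (318 to 359), 240 (228 to 253) and 213 (195 to 233). A neutrophil-like cluster was lowest in each (10, 12 and 15), at 18.5, 19.5 and 18.8 CPM. Sham neutrophil-like cluster 8, at 29.8 (24.0 to 36.6), lay above B-like clusters 5, 6 and 9, though its interval overlapped theirs. B-like clusters held 38.0%, 34.7% and 33.2% of its UMIs, below the median gene with at least 10 UMIs at 54.0%, 50.5% and 49.7%. In the macrophage-like cluster Nfatc1 stood at 63.2, 59.6 and 49.4 CPM, with log2 ratios of -0.09 (-0.33 to 0.17) and -0.27 (-0.50 to -0.04).

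Sigirr encodes an inhibitory member of the interleukin-1 receptor family that restrains osteoclast formation. It had 165, 191 and 185 UMIs. The Dntt-marked early cluster held 45, 36 and 28 of them, at 11.9 CPM (8.67 to 15.9), 10.9 (7.64 to 15.1) and 7.77 (5.16 to 11.2). The T and NK-like cluster held 15.5 CPM (10.7 to 21.7) in the UAC and 9.05 (5.60 to 13.8) in UAC + miR-330, overlapping the early cluster in both. Among single clusters, the erythroid and B gene cluster (13, 11 and 11, highest in Car1) held the largest count, 52, 62 and 59 UMIs, at 4.59, 4.51 and 3.85 CPM. These were 31.5%, 32.5% and 31.9% of the Sigirr UMIs of each library. In the macrophage-like cluster Sigirr had 3, 1 and 4 UMIs, too few for a difference to be detectable.

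Over all clusters, members past 1.5-fold were counted among genes whose UMIs in the pair of libraries summed to 10 or more, with 0.5 UMI added to each count. For UAC against sham 1 of 7 members, Oscar, was higher (log2 ratio 1.13, 0.86 to 1.41) and 0 were lower, beside 9.86% of 16687 genes higher and 8.31% lower. Of the clusters that held most Oscar UMIs, the macrophage-like one had 4.36% of sham and 6.33% of UAC UMIs. The interferon-gene neutrophil-like one had 3.93% and 2.39%. The part of these shares in the Oscar ratio was not tested. For UAC + miR-330 against UAC 0 members were higher and 3 of 7 lower, beside 13.8% of 16939 genes higher and 6.22% lower. The 3 were Ctsk at -0.75 (-0.86 to -0.64), Atp6v0d2 at -2.85 (-3.86 to -2.05) and Slc9b2 at -0.85 (-1.41 to -0.32). Genes that reached 50 UMIs had a median log2 ratio of -0.02 and 0.13. Both comparisons share the UAC library, so a high or low UAC value moves them in opposite directions. On the scale of the deposited mean counts every log2 ratio is 0.20 larger for UAC against sham and 0.24 larger for UAC + miR-330 against UAC. The share of higher genes among those past 1.5-fold then goes from 54.3% to 74.7% and from 69.0% to 89.4%. On that scale Ctsk at -0.51 is within 1.5-fold, Sigirr turns from -0.04 to 0.15 and from -0.12 to 0.12, and Oscar turns from -0.19 to 0.05 for UAC + miR-330 against UAC.

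In the macrophage-like cluster 6 of the 7 members had enough UMIs to be counted. For UAC against sham 3 were higher (Ctsk, Atp6v0d2 and Slc9b2) and 1 was lower (Acp5), beside 6.22% of 11234 genes higher and 16.0% lower. For UAC + miR-330 against UAC 0 were higher and 4 lower (the same Ctsk, Atp6v0d2 and Slc9b2, with Acp5), beside 18.0% of 11461 genes higher and 6.03% lower. Ctsk there stood at 4.73, 9.54 and 4.34 CPM, log2 ratios of 0.98 (0.19 to 1.91) and -1.12 (-1.87 to -0.44). Over the B-like clusters UAC against sham gave -0.14 (-0.48 to 0.20) for Ctsk and -1.56 (-4.23 to 0.30) for Atp6v0d2. Slc9b2 stood at -1.43 (-2.52 to -0.50) over the same clusters. Most of the sham Atp6v0d2 UMIs there, and some of those of Slc9b2, lay in the small B-like cluster 7. In the erythroid and B gene cluster the 3 had negative log2 ratios for UAC against sham, at -2.09 (-3.06 to -1.28) for Ctsk, -1.27 (-2.02 to -0.57) for Atp6v0d2 and -0.74 (-1.54 to 0.02, taking in 0) for Slc9b2. There UAC + miR-330 against UAC gave 0.77 (-0.15 to 1.80), -2.42 (-4.27 to -1.13) and -1.49 (-2.75 to -0.43). That cluster differed in make-up as well: 12 listed erythroid markers, 10 of them matched, summed to 1227 CPM in sham, 2940.1 in UAC and 4351 in UAC + miR-330 (led by Car1, then Hba-a1 in both others), T and NK markers to 207, 119 and 143, and 2, 0 and 0 osteoclast markers were enriched; their part in the ratios was not tested. On the scale of the deposited mean counts, in the macrophage-like cluster, Oscar, at 0.71, raised the higher members to 4 for UAC against sham, and Nfatc1 turned from -0.09 to 0.11. Acp5 in the macrophage-like cluster, where dendritic markers moved too, was thus lower while Ctsk, Atp6v0d2 and Slc9b2 were higher for UAC against sham, and all 4 were lower for UAC + miR-330 against UAC.

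**Figure D3:**
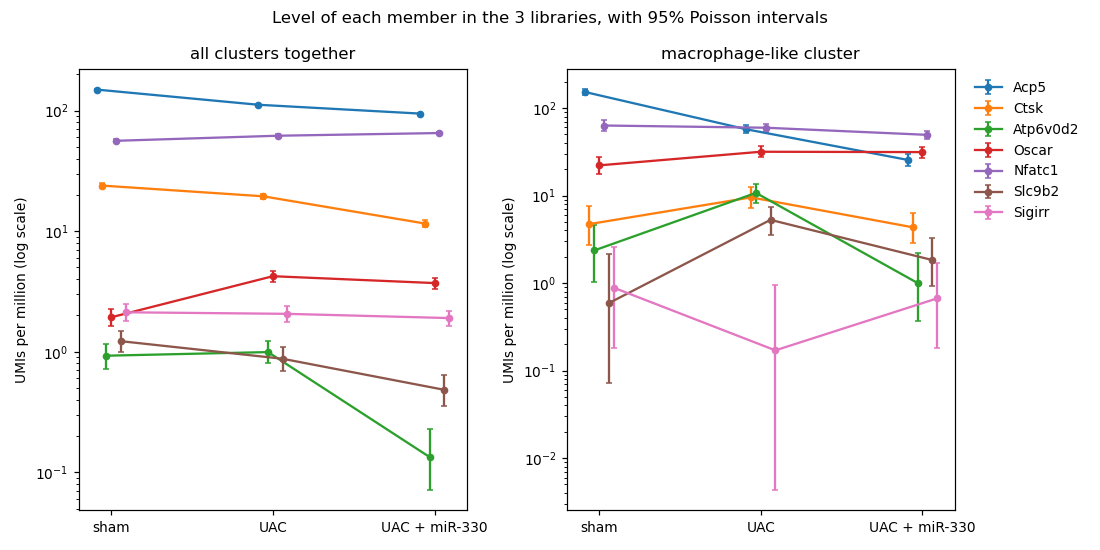
Level of each member in the 3 libraries over all clusters (left) and in the macrophage-like cluster (right), in CPM on a log axis with exact 95% Poisson intervals. In the macrophage-like cluster Atp6v0d2 peaks in the UAC library at 10.7 CPM, while Acp5 steps down from 153 to 57.3 and 25.6 CPM.

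A list of 94 further genes of osteoclast formation, signalling, acid secretion and the members' families was set beside them. Over all clusters 88 could be counted, of which 18 were higher and 1 lower for UAC against sham (median log2 ratio 0.20, beside -0.02 over all genes, of which 9.86% were higher and 8.31% lower). For UAC + miR-330 against UAC 4 were higher and 3 lower (median 0.12, beside 0.13, 13.8% and 6.22%). The libraries differ in make-up: the macrophage-like cluster held 4.36% of sham, 6.33% of UAC and 6.16% of UAC + miR-330 UMIs. The shares of neutrophil-like clusters, given below, differed too. The part of these shares in the counts over all clusters was not tested. In the macrophage-like cluster 82 could be counted, of which 8 were higher and 12 lower for UAC against sham (6.22% and 16.0% of all genes), and 10 higher and 4 lower for UAC + miR-330 against UAC (18.0% and 6.03%). The 4 lower ones were Tnfrsf11a, Mmp9, Car2 and Il1r2, and the 10 higher ones Pirb, Blnk, Irf8, Ctsg, Ctse, Nfatc2, Slc9a9, Il1rl1, Il1rl2 and Il18r1, all named after their values were seen. Mmp9 stood in that cluster at 9.16, 23.2 and 2.67 CPM and Car2, the carbonic anhydrase that supplies protons, at 27.2, 22.8 and 6.01 CPM. Csf1r, the receptor for the growth factor of the lineage, stood at 292, 296 and 320 CPM. Neutrophil-like clusters, where Mmp9 peaked, held 10.0%, 15.9% and 10.6% of all UMIs; UAC cluster 18 (3.56%) is among them, while UAC + miR-330 cluster 18 (3.58%), also led by Defa11, Defa5 and Ms4a3, stayed unnamed. Their part in the Mmp9 values of the macrophage-like cluster was not tested. Car2 was among the 10 leading genes of the erythroid and B gene cluster of each library, which held 14.6%, 14.9% and 15.8% of all UMIs. The part of that cluster in the Car2 values was not tested either.

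Many relatives of the members peaked in other clusters than the members. Among acid phosphatases, Acp1 peaked in the erythroid and B gene cluster of each library (50.2, 60.0 and 87.5 CPM) and Acpp in the macrophage-like cluster (82.4, 110 and 111 CPM), whereas Acp5 peaked in a B-like one. Among cathepsins with the most UMIs, Ctsz and Ctsb peaked in the macrophage-like cluster and Ctsh in the interferon-gene neutrophil-like one, at 1004, 918 and 972 CPM. Of the NFAT family, Nfatc3 had 80.8%, 78.9% and 76.8% of its UMIs in B-like clusters, and Nfatc2 peaked in the chondrocyte-like cluster at 298, 283 and 342 CPM. The exchanger Slc9a7 had 90.1%, 89.2% and 89.0% of its UMIs in B-like clusters. The decoy receptor Il1r2 and the adaptor gene Fcer1g, through which OSCAR signals, both peaked in the same neutrophil-like cluster as Oscar in the UAC and UAC + miR-330 libraries, Il1r2 at 2093 and 1703 CPM and Fcer1g at 2222 and 1896 CPM. Over the list, 35 of 86 genes in the sham, 31 of 87 in the UAC and 32 of 87 in the UAC + miR-330 library had over 50% of their UMIs in B-like clusters. Among all genes with at least 10 UMIs, 57.1%, 50.9% and 48.9% did. The median share over the list was 40.7%, 36.4% and 36.8%, below the 54.0%, 50.5% and 49.7% of all genes.

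The genes whose levels followed each member most closely over clusters were ranked among 11724 genes by the mean of Pearson's r of log2(CPM + 1) in the 3 libraries. For Acp5 they were Abca3 (mean r 0.955), Grpel2 (0.948) and Lat2 (0.946), and for Ctsk Lrrc17 (0.940), Lnx1 (0.940) and Dnm1 (0.939). For Oscar they were AC114233.2 (0.957), Adgb (0.915) and Cxcl2 (0.915), and for Nfatc1 Cobll1 (0.917), Ski (0.908) and Ciart (0.903). Sigirr was followed by Ubash3a (0.870), Cd5 (0.843) and Gimap9 (0.841). Atp6v0d2 was followed by Mt3 (0.857), Mnda (0.730) and Arhgap6 (0.728), and Slc9b2 by Mt3 (0.692), Dgki (0.657) and Mitf (0.631). These names rest on the measure: 1 of the 21 was also named by Spearman's correlation, Dnm1 for Ctsk.

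Sequences were taken from RefSeq (GRCr8) for the microRNA that the third library received and for the promoters of Acp5 and Ctsk, whose UMIs lay mostly in 1 class each, B-like and chondrocyte-like. The labels do not say which arm of miR-330 the AAV was made to supply, so both rat arms are shown, 5′ to 3′ with the seed (bases 2 to 8) in capitals.
rno-miR-330-5p: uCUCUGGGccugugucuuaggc
rno-miR-330-3p: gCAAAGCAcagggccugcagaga

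Promoters, 250 bases before to 50 after each start, were listed for 4 of the 7 members, and Acp5 had 2 starts that the deposited gene tables do not separate. Capitals mark any of 4 motifs on either strand: GAGGAA (the core bound by PU.1, in 27.6% of all 33469 rat promoters), GGAAA (the NFAT core, 62.7%), CACATG (an E-box bound by MITF, 14.0%) and CACGTG (a palindromic E-box, 6.42%). The first and second can overlap by 4 bases. The first Acp5 promoter (chr8:28943880-28944179, minus strand) held 2 matches to GGAAA and 1 to CACATG, the second (chr8:28945881-28946180, minus strand) held 0 of any, and that of Ctsk (chr2:185747298-185747597, plus strand) held 1 each of the first 3 motifs. The promoter of Oscar held 1 match to GAGGAA and 3 to GGAAA, that of Sigirr 0 of any. A match is a description of these letters and not a site in use.
Acp5 promoter 1: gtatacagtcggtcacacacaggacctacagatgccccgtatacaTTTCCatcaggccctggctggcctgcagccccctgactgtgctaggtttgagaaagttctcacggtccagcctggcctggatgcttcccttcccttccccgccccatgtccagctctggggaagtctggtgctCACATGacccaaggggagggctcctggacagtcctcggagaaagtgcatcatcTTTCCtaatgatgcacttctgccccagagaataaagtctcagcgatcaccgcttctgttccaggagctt
Acp5 promoter 2: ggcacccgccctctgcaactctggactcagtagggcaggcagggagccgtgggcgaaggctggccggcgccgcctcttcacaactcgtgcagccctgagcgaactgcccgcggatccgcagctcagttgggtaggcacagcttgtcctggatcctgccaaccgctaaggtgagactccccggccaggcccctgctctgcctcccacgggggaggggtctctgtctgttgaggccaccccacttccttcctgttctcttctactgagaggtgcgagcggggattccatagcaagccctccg
Ctsk promoter: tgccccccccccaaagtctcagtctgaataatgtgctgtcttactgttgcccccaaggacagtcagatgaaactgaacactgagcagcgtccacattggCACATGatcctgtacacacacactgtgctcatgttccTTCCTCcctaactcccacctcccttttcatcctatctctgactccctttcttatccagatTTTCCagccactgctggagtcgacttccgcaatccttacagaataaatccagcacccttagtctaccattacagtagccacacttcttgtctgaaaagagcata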

How the data were processed

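The authors deposited, per library, a graph-clustering table whose mean counts are a normalized signal, made by scaling each cluster's UMIs with its own constant before deposit. The submitters' processing notes name Cell Ranger 7.0, STAR and Seurat 4.0.1, and the builds GRCh38 and mm10, although the identifiers are rat Ensembl genes; the build of these tables is not given in the sources used here. The tables also hold the authors' log2 fold changes and adjusted p-values of each cluster against the others of its library, which were not used. Each mean was divided by the smallest positive mean of its column, and 100% of values came out whole (within 1e-06). UMIs of identifiers sharing a name were added and divided by the cluster's UMIs to give CPM. Intervals are exact (Poisson, binomial, and conditional binomial for ratios).

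Clusters were named from 189 markers of 16 classes, 172 of them listed in all 3 libraries, by a rule settled after the tables were read. A marker was enriched with at least 10 UMIs and a log2 fold of at least 1 over the other clusters, 1 CPM added. A class needed 3 enriched markers, 3 at 50 CPM, more enriched markers than any other class, and no other class with more genes among the 10 leading ones. B-like needed 5 B markers at 50 CPM and 4 times their mean in the 3 clusters lowest in B markers, with at least as many enriched as the best other class; a cluster that passed for B but had more enriched markers of another class carries both names. Each library was clustered alone, so clusters were matched between libraries by markers.

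No count test was run, because each condition has 1 library. In counts simulated over all clusters for UAC against sham, 200 genes with at least 50 UMIs in the sham library were changed. Of these, 100 of 100 raised 2-fold and 99 of 100 lowered 2-fold passed 1.5-fold, as did 5.29% of unchanged genes among 16558. For UAC + miR-330 against UAC 5.91% of unchanged genes passed. With 1 library per condition these shares cover counting error only and not differences between pools. No counts were simulated for single clusters, the macrophage-like one included, or for changed genes with fewer UMIs. Named genes were the members, the 3 relatives with most UMIs in each list, the 3 genes most alike each member, markers, and listed genes past 1.5-fold in the macrophage-like cluster for UAC + miR-330 against UAC; gene pairs for free RNA were chosen after the tables were read. The members and lists were chosen with earlier results of these data known. Python 3.11.15, numpy 2.4.6, pandas 2.3.3, scipy 1.17.1 and matplotlib 3.10.9 were used.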

Additional observations from a re-analysis of the deposited data

How the results depend on the processing

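Over all clusters and in the macrophage-like cluster, no member past 1.5-fold changed direction under any alternative. Member ratios in other places, except that of Acp5 over the B-like clusters, had no alternative run. A value counts as moved when it leaves the 95% interval of the reported one, and a count of genes when it changes by over 1.5 times. By this, keeping the identifier with the most UMIs, or leaving mitochondrial, immunoglobulin and haemoglobin genes out of totals, moved 0 values. Adding 5 UMIs moved 0 as well, but the wide intervals of rare genes hide large steps: in the macrophage-like cluster, UAC against sham, Slc9b2 went from 2.86 to 1.57 and Atp6v0d2 from 2.11 to 1.59, and over all clusters, UAC + miR-330 against UAC, Atp6v0d2 went from -2.85 to -2.50. Deposited mean counts gave log2 ratios of -0.22 (Acp5), -0.10 (Ctsk) and 0.34 (Nfatc1) with 2540 genes higher and 862 lower for UAC against sham, and -0.00742, -0.51, 0.31 and, for Oscar, 0.0468 with 5058 and 599 for UAC + miR-330 against UAC. At 50 UMIs 992 were higher and 861 lower, then 532 lower; with no minimum 3160, 2587, 3772 and 2321. B-like shares (sham, UAC, UAC + miR-330) with the lowest cluster subtracted were 83.9%, 76.7%, 76.8% (Acp5), 5.33%, 6.76%, 6.86% (Ctsk) and 30.9%, 28.7%, 26.6% (Nfatc1, whose second ratio became 0.13). Without B-like clusters led by other genes, UAC and UAC + miR-330 gave 72.7%, 73.3% (Acp5), 31.7%, 30.9% (Nfatc1) and 16.8%, 24.3% (Sigirr). Clusters weighted alike gave 69.6%, 71.8% (Acp5), 43.0%, 27.6%, 27.2% (Nfatc1), 15.0% (Ctsk, sham), 38.9% (Atp6v0d2, sham) and 2.03% (Oscar, UAC). Counting clusters with B genes beside others as B-like, tried after the data were seen, gave 92.5%, 91.6%, 95.04% (Acp5), 11.5%, 14.9% (Ctsk, sham and UAC + miR-330), 84.7%, 31.5%, 53.8% (Atp6v0d2), 50.7%, 57.1%, 60.6% (Nfatc1), 72.6%, 48.1%, 59.6% (Slc9b2) and 90.3%, 71.2%, 81.1% (Sigirr). Spearman's correlation kept 1 of 21 names.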

Other observations

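Sham cluster 7, a small B-like cluster of 1352666 UMIs, held all 4 Calcr UMIs of its library, with 7 of Atp6v0d2 (5.17 CPM, 2.08 to 10.7), 9 of Slc9b2 (6.65, 3.04 to 12.6) and 13 of Ctsk (9.61, 5.12 to 16.4). It was picked out after its values were seen.

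Each condition is 1 pool, so rats, surgery and library preparation cannot be told apart. Clusters were built in each library alone, and the marker-based match between them was not tested. Cell numbers per cluster are not given in the sources used here, so the spread of a gene among cells of a cluster is unknown. Members with under 100 UMIs in a library, Atp6v0d2 and Slc9b2, have wide intervals in every cluster.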
